A study of Mus musculus with 8 samples.

Results

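The genes of cholesterol and fatty acid synthesis were examined in kidney RNA of tacrolimus-treated and control mice. They were chosen by name: 30 genes, 17 of them sterol pathway enzymes, 5 regulators of sterol regulatory element-binding proteins (SREBPs), 1 sterol carrier and 7 genes of fatty acid synthesis. All 30 have a probe on the array and all 30 were bright enough on at least 4 of the 8 arrays to be tested, among 25127 genes and unnamed transcripts tested of 34763 with a probe. CD-1 mice, an outbred stock, received tacrolimus at 1 mg/kg/day for 28 days (TAC, 4 arrays) or physiological serum (CTL, 4 arrays), and total RNA of the kidney was hybridised to 1-colour Agilent arrays. Tacrolimus is a calcineurin inhibitor given against transplant rejection. The labels give neither the age nor the sex of the mice. They number the samples without naming animals, and each p-value therefore reflects only how these 8 samples vary, which may be technical.

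Cholesterol is built from acetyl-CoA through mevalonate, which is turned into isoprenoid units, joined to squalene, closed to lanosterol and then trimmed to cholesterol. Fatty acids start from the same acetyl-CoA, which ATP citrate lyase and acetyl-CoA synthetase supply and acetyl-CoA carboxylase commits to chain growth. Both pathways are driven by SREBPs, membrane-bound transcription factors encoded by Srebf1 and Srebf2: when sterols are low, the escort protein encoded by Scap carries them out of the endoplasmic reticulum to be cut and released, and when sterols are high, the Insig proteins hold them back. SREBPs bind short promoter elements beside sites of the general factors NF-Y and Sp1, and a fall or rise of nuclear SREBP is known to move many of these genes together.

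RefSeq promoter windows (GRCm38.p6, from 250 bases before to 50 bases after the gene's start) were matched by symbol for 24 of the 30 genes. Fdps, Fdft1, Sqle, Stard4, Scd1 and Scd2 were not matched. The NF-Y box CCAAT, searched on both strands, was in a window of 21 of the 24 genes, against 41.1% of all 27025 genes with a window. The Sp1 box GGGCGG was in 20 of 24, against 38.2% of all genes, and the E-box CACGTG in 5 of 24, against 8.09%. The sterol regulatory element TCACNCCAC was in 1 of the 24, Hmgcs1, against 1.44% of all genes, and lies 137 bases before the start there. A match describes letters in a window and not a bound site. Elements with other letters, or outside the window, were not searched for, so that a gene without a match may still hold one. The 250 bases before the start are given for Hmgcs1, which alone of the 24 genes had a match to TCACNCCAC. They are also given for Mvd, Nsdhl and Acly, which were among the genes lowest under tacrolimus relative to their spread. Acaca and Pmvk, not shown, were also among these lowest genes. Acaca had none of the motifs searched in its window, and Pmvk had only an NF-Y box. Capitals mark the sterol regulatory element, the NF-Y boxes and the Sp1 boxes on either strand, which do not overlap one another, and each sequence runs 5′ to 3′ on the gene's strand.
Hmgcs1, chr13:119690101-119690350, plus strand: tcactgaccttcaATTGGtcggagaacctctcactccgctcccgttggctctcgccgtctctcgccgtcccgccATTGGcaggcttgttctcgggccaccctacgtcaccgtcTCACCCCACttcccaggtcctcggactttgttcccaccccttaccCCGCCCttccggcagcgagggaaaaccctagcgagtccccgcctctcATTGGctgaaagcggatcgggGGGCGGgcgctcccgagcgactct
Mvd, chr8:122443423-122443672, minus strand: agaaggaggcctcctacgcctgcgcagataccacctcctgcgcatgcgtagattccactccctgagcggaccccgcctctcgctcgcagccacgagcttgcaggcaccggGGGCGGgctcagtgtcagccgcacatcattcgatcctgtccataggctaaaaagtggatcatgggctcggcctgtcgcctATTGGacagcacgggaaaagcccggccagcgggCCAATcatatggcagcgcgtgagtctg
Nsdhl, chrX:72918271-72918520, plus strand: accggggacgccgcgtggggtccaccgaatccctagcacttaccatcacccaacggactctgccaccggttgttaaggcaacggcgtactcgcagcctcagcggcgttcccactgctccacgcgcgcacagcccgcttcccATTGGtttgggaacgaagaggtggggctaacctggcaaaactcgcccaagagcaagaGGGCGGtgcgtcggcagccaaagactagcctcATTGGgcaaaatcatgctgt
Acly, chr11:100528001-100528250, minus strand: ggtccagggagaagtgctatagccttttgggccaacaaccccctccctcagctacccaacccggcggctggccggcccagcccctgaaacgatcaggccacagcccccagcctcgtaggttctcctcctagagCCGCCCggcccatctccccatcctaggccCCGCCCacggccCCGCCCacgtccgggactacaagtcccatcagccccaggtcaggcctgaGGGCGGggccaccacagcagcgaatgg
In Hmgcs1 the sterol element (TCACCCCAC) lies between NF-Y boxes, which read ATTGG on this strand. Mvd and Nsdhl each have a pair of NF-Y boxes and a Sp1 box in the 250 bases, and Acly has 4 Sp1 boxes there.

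Under tacrolimus none of the 30 genes passed the test over all genes. The number called was 0 of 30 at an adjusted p under 0.05 (limma, Benjamini-Hochberg over all 25127), where 0.227% of all genes were called, and the adjusted p of the 30 lay between 0.160 and 0.979. At an unadjusted p under 0.05, 4 of the 30 were lower in TAC and 0 were higher: Acly, Mvd, Acaca and Pmvk. That is 13.3% of the set lower, where 8.42% of all genes were lower and 7.04% higher at the same limit. On 5 genes (16.7%), these 4 and Nsdhl, every TAC array lay below every CTL array, which happened in 5.75% of all genes, and on none did every TAC array lie above, which happened in 4.35%. The differences of these 5 were 1.16-fold to 1.25-fold. With so few genes the shares rest on 4 and 5 members.

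Most differences were small, and the largest were those of Dhcr7 at -0.64 and Srebf1 at -0.43. A level here is the log2 signal of a gene's brightest probe after subtracting its array's 75th percentile, and a difference is TAC minus CTL on that scale. The median difference of the 30 genes was -0.08, beside -0.05 over all genes tested, and 20 of 30 were below 0, beside 60.5% of all genes. The median size of a difference, whatever its sign, was 0.11 for the 30 and 0.16 for all genes. For 28 of the 30 the 95% interval of the difference (limma) lay within 2-fold either way, and for 23 of them within 1.5-fold. The 2 genes with a wider interval were Cyp51 and Dhcr7, which varied most between arrays of a group.

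**Figure D1:**
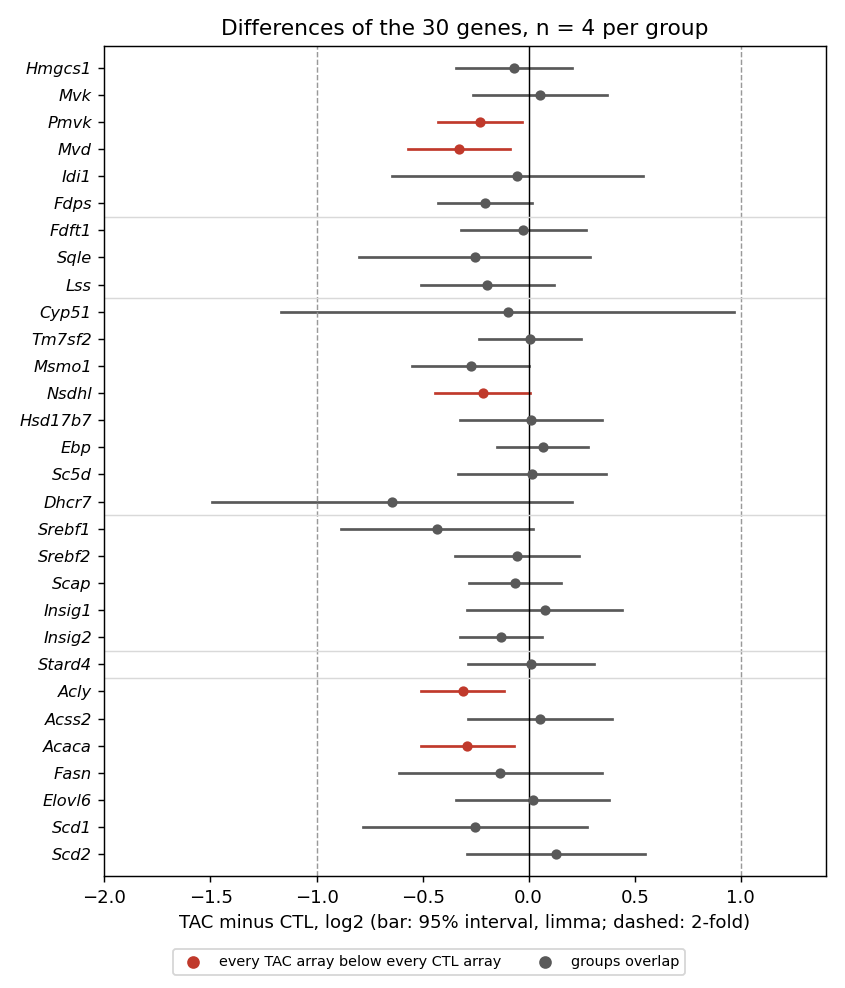
Differences of the 30 genes, TAC minus CTL on the log2 scale, with 95% intervals from limma (n = 4 arrays per group); red marks the 5 genes whose TAC arrays all lie below all CTL arrays, and dashed lines mark 2-fold. Only the intervals of Cyp51 and Dhcr7 cross a dashed line, and the 5 red points lie between -0.33 and -0.22.

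**Figure D2:**
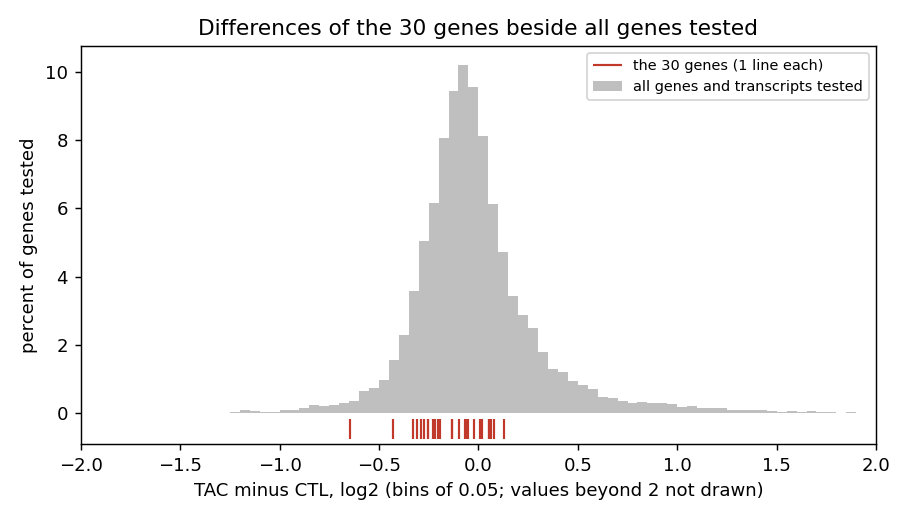
Distribution of TAC minus CTL differences (log2, bins of 0.05) over all genes and transcripts tested, in percent of genes, with a line below for each of the 30 genes. The 30 lie between -0.64 and 0.13, with Dhcr7 and Srebf1 the lowest, at -0.64 and -0.43.

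A few properties of the whole array set bear on these values. No spot was saturated, and the share of spots well above background lay between 64.0% and 69.8%. The TAC arrays lay in row 2 and the CTL arrays in row 1 of 1 slide, so that slide row and treatment cannot be told apart. Kidney markers were high on every array, at a mean level of 4.81 to 4.94 on the TAC and 4.91 to 5.07 on the CTL arrays over 11 markers, none of which passed an unadjusted p of 0.05 (limma). In whole-kidney RNA, fewer cells of a type and less RNA per cell cannot be told apart.

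Of the 6 genes that lead from acetyl-CoA units through mevalonate to farnesyl diphosphate, Mvd and Pmvk had every TAC array below every CTL array, and the other 4 overlapped. Mvd, the decarboxylase that makes isopentenyl diphosphate, had levels of 2.04, 1.82, 2.15 and 2.03 on TAC replicates 1 to 4, against 2.25, 2.37, 2.50 and 2.23 on CTL replicates 1 to 4. The groups did not overlap, and the difference was -0.33 ± 0.11 (SE), a 1.25-fold lower signal in TAC (unadjusted p = 0.0138 and adjusted p = 0.218, limma). Mvd has 1 probe on the array, on chromosome 8 from 124957750 to 124957809 (mm9, as all probe positions here). Pmvk, phosphomevalonate kinase, had 2.84, 2.73, 2.64 and 2.91 in TAC, against 3.02, 3.04, 2.98 and 3.00 in CTL. The CTL arrays were within 0.07 of one another and all above the TAC arrays, with a difference of -0.23 ± 0.09 (unadjusted p = 0.0286 and adjusted p = 0.270, limma). A further probe of Pmvk differed by -0.23 as well, and there TAC replicate 4 at 1.87 lay above CTL replicates 1 and 3 at 1.85 and 1.82.

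Fdps, which makes farnesyl diphosphate, averaged 2.26 ± 0.06 in TAC and 2.46 ± 0.15 in CTL (SD, n = 4 each), with CTL replicate 1 at 2.27 inside the TAC range. Hmgcs1, the cytosolic HMG-CoA synthase at the entry of the pathway and the gene with the sterol element shown above, averaged 6.49 ± 0.19 in TAC and 6.56 ± 0.13 in CTL. Its difference was -0.07 with a 95% interval from -0.34 to 0.20, so that neither direction stood out from the spread. Mvk, mevalonate kinase, differed by 0.05 (interval -0.26 to 0.37), and its further probe by -0.16. Idi1, the isomerase of the isoprenoid unit, ranged from 3.58 on TAC replicate 2 to 4.87 on TAC replicate 4, against 4.27 to 4.63 on the CTL arrays. The TAC arrays of Idi1 thus lay on both sides of the CTL arrays, and the mean difference was -0.05 ± 0.26.

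The steps from farnesyl diphosphate to lanosterol did not separate the groups. Sqle, squalene epoxidase, had the largest difference of the 3, with 3.58, 3.15, 3.88 and 3.57 in TAC, against 4.16, 3.96, 3.92 and 3.15 in CTL. CTL replicate 4 was as low as the lowest TAC array, while the other CTL arrays were above all TAC arrays, and the difference was -0.25 ± 0.24. It was -0.47 without CTL replicate 4, -0.12 without TAC replicate 2 and -0.13 without CTL replicate 1. Lss, lanosterol synthase, averaged -0.78 ± 0.17 in TAC and -0.58 ± 0.22 in CTL. Fdft1, squalene synthase, averaged 0.12 ± 0.16 in TAC and 0.14 ± 0.19 in CTL.

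The 8 genes that turn lanosterol into cholesterol held the genes that varied most between arrays of a group, Cyp51 and Dhcr7. Nsdhl, a sterol dehydrogenase in the removal of methyl groups, had 2.14, 1.93, 2.18 and 1.85 in TAC, against 2.30, 2.23, 2.23 and 2.21 in CTL. Its groups did not overlap (difference -0.22 ± 0.10, unadjusted p = 0.0571 and adjusted p = 0.334, limma). The further probe of Nsdhl differed by 0.01 and its groups overlapped, so that the separation was seen on 1 of its 2 probes. Msmo1, the methylsterol oxygenase that acts with Nsdhl, had 3.24, 2.90, 2.83 and 2.85 in TAC, against 3.05, 3.23, 3.29 and 3.35 in CTL. TAC replicate 1 of Msmo1 lay among the controls and the other TAC arrays below them, with a difference of -0.27 ± 0.12 (unadjusted p = 0.0525, limma).

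Dhcr7, the reductase of the last step, had the largest fitted difference of the 30 genes and a wide spread. Its levels were -0.63, 0.34, -0.68 and -0.99 in TAC, against 0.79, 0.62, -0.34 and -0.46 in CTL. TAC replicate 2 lay above CTL replicates 3 and 4, and the difference of -0.64 ± 0.37 had a 95% interval from -1.49 to 0.21. Without 1 array it ranged from -0.92 (without TAC replicate 2) to -0.43 (without CTL replicate 1), and without TAC replicate 4 and CTL replicate 2 it was -0.32. Cyp51, the lanosterol demethylase, had 2.24, 1.87, 0.55 and 1.58 in TAC, against 0.57, 1.57, 2.02 and 2.47 in CTL. Within each group its arrays spread over 1.69 and 1.90 log2 units in TAC and CTL, and the mean difference was -0.10 ± 0.47. The pooled standard deviation within groups was 0.77 for Cyp51 and 0.61 for Dhcr7, at percentiles 96.3 and 93.4 of all genes tested, while the median was 0.19 for the 30 genes and 0.20 for all. Each of the 2 genes has 1 probe, so that no further probe could be set beside these spreads.

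The other 4 enzymes after lanosterol had differences of at most 0.07. Tm7sf2, a sterol reductase, differed by 0.008 ± 0.11, Hsd17b7, the ketosteroid reductase of the pathway, by 0.01 ± 0.15, and Sc5d, a sterol desaturase, by 0.02 ± 0.15. Ebp, the sterol isomerase, averaged 5.16 ± 0.12 in TAC and 5.10 ± 0.08 in CTL (SD, n = 4 each), a difference of 0.07 with an interval from -0.15 to 0.28. With the deposited values it was 0.18 (unadjusted p = 0.0287, limma). For these 4 genes the intervals lay within 1.5-fold either way.

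**Figure D3:**
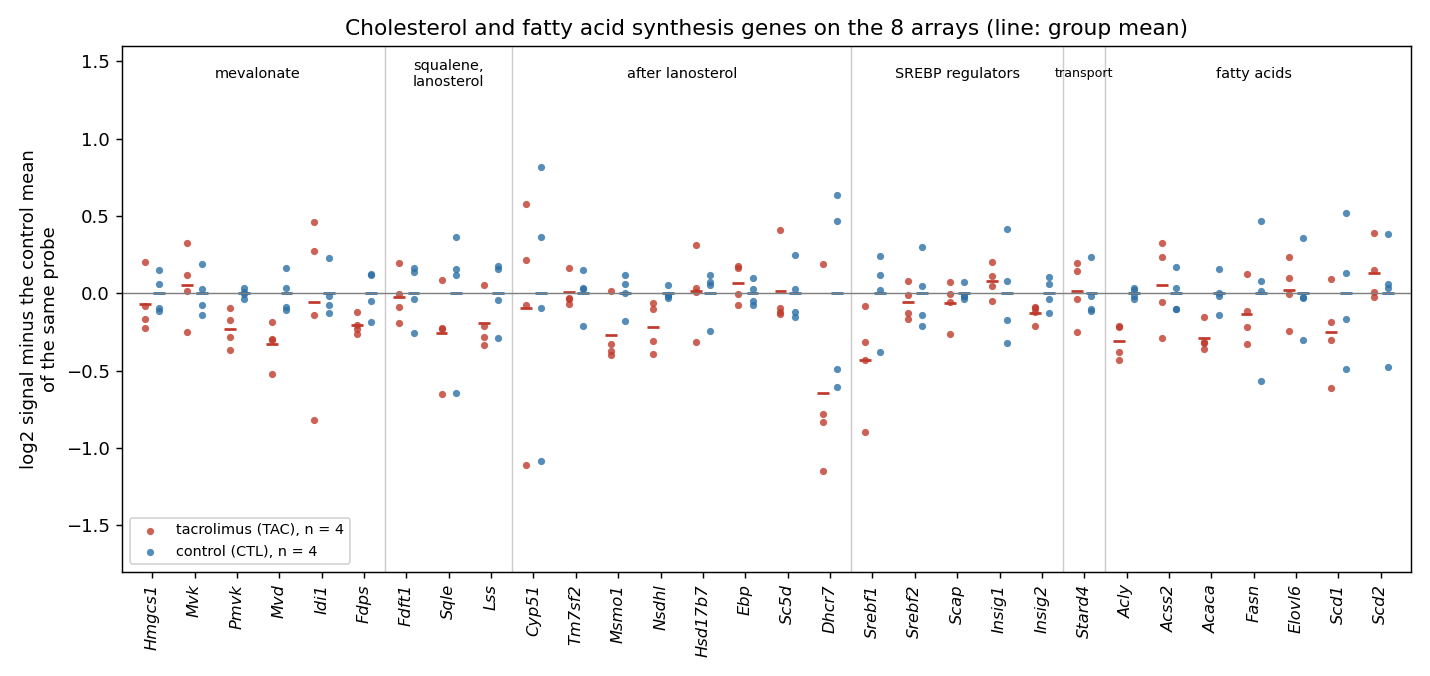
Each point is 1 array: the log2 signal of a gene's brightest probe minus the CTL mean of that probe, for TAC (red, left) and CTL (blue, right), n = 4 each, with short lines at the group means. TAC and CTL points overlap for 25 of the 30 genes, and Cyp51, Dhcr7 and Idi1 have arrays far apart within a group.

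Among the regulators, no gene separated the groups at its brightest probe. Srebf1, which encodes the SREBPs tied mainly to fatty acid synthesis, had the largest difference of the 5, with -2.26, -1.92, -2.15 and -2.73 in TAC, against -2.21, -1.72, -1.59 and -1.81 in CTL. CTL replicate 1 lay within the TAC range, and the difference was -0.43 ± 0.20 (unadjusted p = 0.0586 and adjusted p = 0.335, limma). TAC replicate 4 was the lowest array, and the difference was -0.28 without it and -0.24 without it and CTL replicate 2. Its probe lies on chromosome 11 from 60012664 to 60012723. Scap, the SREBP escort, differed by -0.06 ± 0.09, Insig1, a retention protein that is itself an SREBP target, by 0.08 ± 0.16, and its paralog Insig2 by -0.13 ± 0.09. The further probe of Insig2 differed by -0.15. Stard4, a carrier that moves cholesterol between membranes, had 1.76, 1.97, 2.15 and 2.20 in TAC, against 1.99, 1.91, 1.89 and 2.24 in CTL. The TAC and CTL arrays of Stard4 were interleaved, and the difference was 0.01 ± 0.13.

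Srebf2, which encodes the SREBP tied mainly to cholesterol synthesis, gave different answers on its 2 probes. The brightest probe, on chromosome 15 from 82034765 to 82034824, had -2.18, -2.06, -1.98 and -2.22 in TAC, against -2.27, -2.01, -2.19 and -1.75 in CTL. Its arrays were interleaved and the difference was -0.06 ± 0.13. The further probe, on chromosome 15 from 82030068 to 82030127, had -3.07, -3.03, -3.21 and -3.30 in TAC, against -3.76, -3.58, -3.89 and -3.48 in CTL. There every TAC array was above every CTL array, with a difference of 0.52 ± 0.12 (unadjusted p = 0.00201, and adjusted p = 0.119 over the 36493 probes tested, limma). Both probes were well above background on all 8 arrays. With the mean of a gene's probes in place of the brightest, the difference of Srebf2 was 0.23. Exon annotation of mm9 was not used here, and whether the probes read the same transcripts was not tested.

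**Figure D4:**
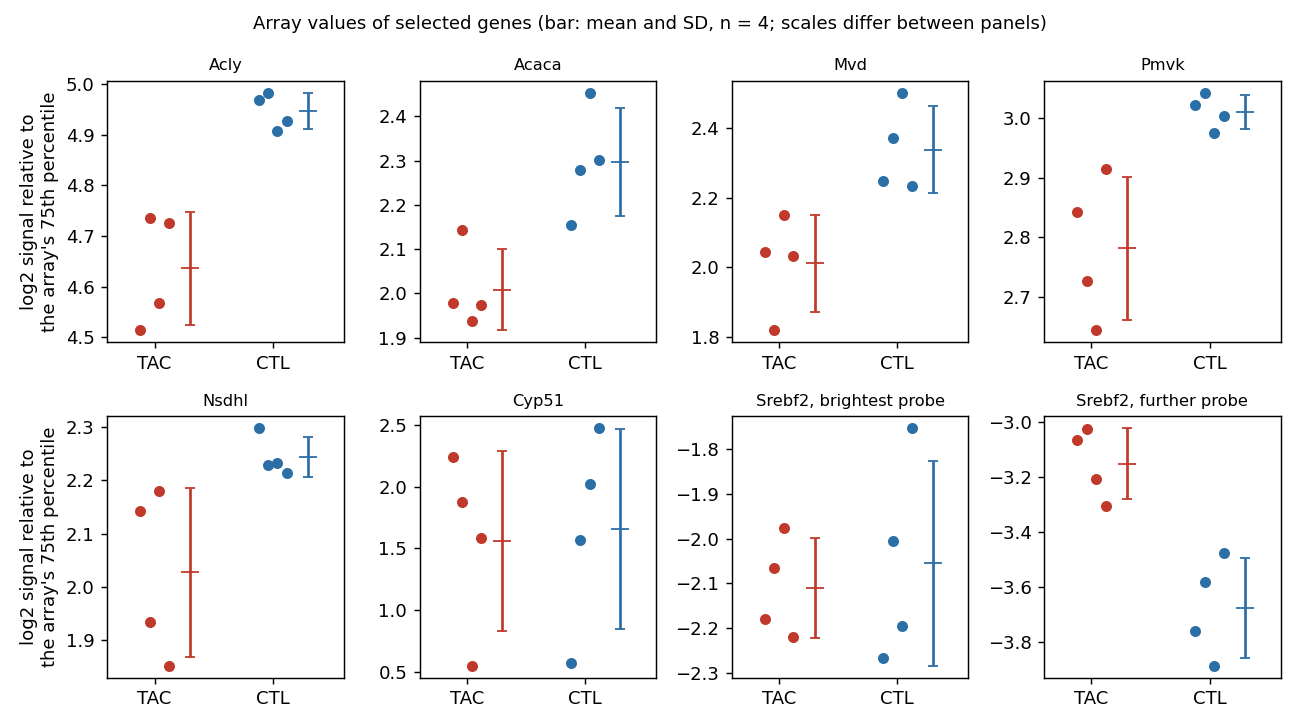
Levels (log2 signal relative to the array's 75th percentile) on each array, TAC left and CTL right, with the mean and SD (n = 4), for the 5 genes whose groups do not overlap, for Cyp51 and for both probes of Srebf2. The TAC arrays are below the CTL arrays in Acly, Acaca, Mvd, Pmvk and Nsdhl, mixed with them in Cyp51 and at the brightest Srebf2 probe, and above them at the further Srebf2 probe.

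In fatty acid synthesis, the TAC and CTL arrays separated for Acly and Acaca, of the supply and commitment steps, and overlapped for the other 5 genes. Acly, ATP citrate lyase, had 4.51, 4.74, 4.57 and 4.73 in TAC, against 4.97, 4.98, 4.91 and 4.93 in CTL. The CTL arrays were within 0.08 of one another, and the lowest of them was above every TAC array. The difference was -0.31 ± 0.09, 1.24-fold lower in TAC, with the lowest p of the 30 genes (unadjusted p = 0.00616 and adjusted p = 0.160, limma). Its probe lies on chromosome 11 from 100337674 to 100337733, and a further probe differed by -0.48 ± 0.20 (unadjusted p = 0.0409, limma), with CTL replicate 3 at -3.33 inside the TAC range. Acaca, acetyl-CoA carboxylase, had 1.98, 2.14, 1.94 and 1.97 in TAC, against 2.15, 2.28, 2.45 and 2.30 in CTL. The groups did not overlap, although TAC replicate 2 and CTL replicate 1 were 0.01 apart, and the difference was -0.29 ± 0.10 (unadjusted p = 0.0154 and adjusted p = 0.224, limma). The probe, on chromosome 11 from 84215093 to 84215152, shares all but 1 base of its span with a probe that differed by -0.27, and the other probes of Acaca differed by -0.17 and, at a probe too dim to be tested, by -0.22.

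Fasn, fatty acid synthase, had -2.62, -2.38, -2.83 and -2.72 in TAC, against -2.42, -3.06, -2.48 and -2.03 in CTL. The CTL arrays enclosed the TAC arrays, and the difference was -0.13 ± 0.21. Scd1, a stearoyl-CoA desaturase, averaged 1.17 ± 0.29 in TAC and 1.43 ± 0.43 in CTL, and its paralog Scd2 averaged 2.38 ± 0.19 in TAC and 2.24 ± 0.35 in CTL (SD, n = 4 each). Neither desaturase differed beyond its spread (intervals from -0.78 to 0.28 and from -0.29 to 0.55). The difference of Scd1, -0.25, was -0.079 without CTL replicate 4, -0.13 without TAC replicate 2 and -0.42 without CTL replicate 1. Elovl6, which lengthens palmitate, differed by 0.02 ± 0.16, and Acss2, the acetyl-CoA synthetase that draws on acetate, by 0.05 ± 0.15.

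Adipocytes also make fatty acids, and their markers were on average higher on the TAC arrays and CTL replicate 2 than on the other CTL arrays. Of 11 adipocyte markers 10 were tested, and their mean level was -1.70, -2.27, -2.29 and 0.73 on TAC replicates 1 to 4, and -3.92, -2.21, -4.09 and -4.04 on CTL replicates 1 to 4. At an unadjusted p under 0.05, 5 were higher in TAC, where 7.04% of all genes were, and none was lower (limma). The 5 were Adipoq, Plin1, Cidec, Cfd and Retn, and none was called after adjustment. Of these 5, all were well above background on the 4 TAC arrays, whereas on the CTL arrays Plin1 was on 0, Adipoq on 1, Cidec on 2, Retn on 3 and Cfd on 4. Plin1, Adipoq, Cidec and Retn thus met the filter through the TAC arrays, so that their count as higher is partly fixed by it. Cidea and Plin4 differed by 1.83 and 0.90, or by -0.06 and 0.43 without TAC replicate 4. Fabp4, Lipe and Pparg, which are not confined to fat, differed by 0.23, 0.19 and 0.01, and none of the 8 arrays had Lep well above background. Without TAC replicate 4 and CTL replicate 2, the arrays highest in these markers within their groups, Acly differed by -0.33, Acaca by -0.28, Mvd by -0.32 and Pmvk by -0.26. Of the 30 genes, 2 were then under an unadjusted p of 0.05 (limma), Acly and Pmvk, both lower in TAC, where 4.68% of all genes were lower. In the mean of the tested markers, the TAC arrays kept, at -2.29 to -1.70, still lay above the CTL arrays kept, at -4.09 to -3.92. Leaving out the 2 arrays thus did not even out the groups, and the part of fat in these differences was not tested.

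Of 7 macrophage markers 6 were higher in TAC at an unadjusted p under 0.05, where 7.04% of all genes were, and none was called (limma). Their mean level was 0.70 to 1.66 on the TAC arrays and -0.33 to 0.37 on the CTL arrays. Their part in the values of the 30 genes was not tested. Among markers of the adrenal gland, which lies on the kidney and is rich in sterols, Cyp11a1, Cyp11b2 and Dbh were not well above background on any array, Cyp11b1 was on 1 TAC array, and the mean level of the 7 tested markers of 11 was -3.52 to -3.27 on the TAC arrays and -3.34 to -2.87 on the CTL arrays. Of these 7, Th alone was under an unadjusted p of 0.05, differing by -0.30 (limma), where 8.42% of all genes were lower. The largest difference of the 7 was that of Hsd3b1, -1.13, or -1.48 to -0.81 without 1 array.

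Where a gene has several probes, the probes give a view of the precision. The array holds 16 further probes for 13 of the 30 genes, 15 of them tested, and 9 of the 16 had the sign of the brightest probe. Of the 15, 3 had an unadjusted p under 0.05 (limma), where 7.88% of all 36493 probes were lower and 6.42% higher in TAC at that limit. They were that of Acly, lower in TAC, that of Srebf2, higher in TAC, and the probe of Acaca that covers nearly the same bases as the brightest and is no separate measurement of another site. Taken over each array, the mean of the 30 genes relative to the CTL mean was -0.10, -0.16, -0.13 and -0.11 on TAC replicates 1 to 4, and -0.12, 0.03, 0.03 and 0.07 on CTL replicates 1 to 4. The 4 TAC arrays were close to one another, and CTL replicate 1 lay among them.

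**Figure D5:**
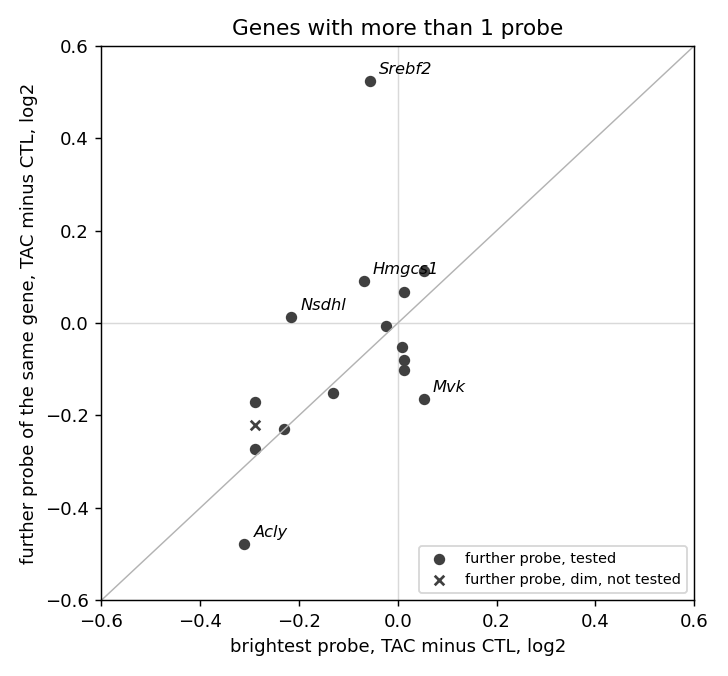
For each of 13 genes with more than 1 probe, the difference (TAC minus CTL, log2) of a further probe against that of the brightest probe, with the line of equality; the cross is a dim probe that was not tested. The probes of Acaca, Acly and Pmvk lie in the lower left, and Srebf2 stands apart at -0.06 against 0.52.

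Neighbouring pathways showed no called gene either. Their counts of differences below 0 stand beside 60.5% of all genes tested, whose median difference was -0.05. Of 9 genes of the non-sterol isoprenoid branch, which feeds dolichol, ubiquinone and prenylated proteins, 0 were called and 0 had an unadjusted p under 0.05 (limma), with 8 of 9 differences below 0 and a median of -0.10. The lowest p belonged to Dhdds at -0.24, Fnta at -0.13, Pdss1 at -0.19 and Pdss2 at -0.15. Of 6 genes of SREBP cleavage and sterol-dependent degradation, 0 were called and 0 had an unadjusted p under 0.05 (limma), and all 6 differences were below 0, with a median of -0.17. Erlin1 differed by -0.30, Mbtps2, the membrane protease that releases SREBPs, by -0.18, Rnf139 by -0.21 and Erlin2 by -0.15.

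Of 17 genes of sterol efflux, storage and trafficking, 0 were called (limma). At an unadjusted p under 0.05, where 7.04% of all genes were higher in TAC, 1 of the 17 was higher (limma). That gene was Ch25h, the cholesterol hydroxylase, which averaged -2.10 in TAC and -2.62 in CTL, a difference of 0.53 ± 0.21 (unadjusted p = 0.0372 and adjusted p = 0.295, limma), or 0.35 without CTL replicate 3. The liver X receptor gene Nr1h3 differed by -0.23, the sterol transporter gene Abcg1 by 0.41 (0.25 without TAC replicate 2) and the oxysterol-binding protein gene Osbp by -0.19. Of 19 further genes of fatty acid and triglyceride synthesis, 0 were called and 0 had an unadjusted p under 0.05 (limma). Slc25a1, the mitochondrial citrate carrier upstream of Acly, differed by -0.22, Thrsp, a lipogenic nuclear protein also abundant in fat, by 0.80 (0.36 without TAC replicate 4), Acss1, the mitochondrial acetyl-CoA synthetase, by 0.22, and Lpin1, a phosphatidate phosphatase, by 0.30. Their median difference was -0.03, beside -0.05 over all genes.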

How the data were processed

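Total RNA of mouse kidney (0.2 ug, RIN 9 for all 8 samples, per the labels) was labelled with Cy3 and hybridised to arrays of 62976 features. Per the file headers, intensities were read with Agilent Feature Extraction 10.7.3.1, and the processed intensity had spatial and multiplicative trends removed; arrays were not scaled to one another. The deposited values are on a log2 scale: each column equals, within 5e-09, log2 of raw median intensities after quantile normalization without background subtraction. Its medians were 6.31, 6.31, 6.30 and 6.31 for TAC and 6.32, 6.31, 6.30 and 6.31 for CTL replicates 1 to 4. Genes are not centred there, and 1 colour leaves no direction open. The submitters' processing notes name limma, with settings not given in the sources used here.

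The values reported are log2 of the processed intensity minus the array's 75th percentile over 59305 non-control spots. The 75th percentile itself was 674 to 1061 intensity units. Control features and spots marked as outliers (147 to 194 per array) were left out, and spots of a probe were averaged. A probe was tested if well above background on at least 4 of 8 arrays (36493 probes), and the brightest probe stood for a gene. Symbols were taken by accession from RefSeq (GRCm38.p6), which matched 28026 of 55681 probes and renamed 1651; all 46 probes of the 30 genes kept the name in the files. TAC and CTL were compared by lmFit and eBayes of limma 3.58.1 (R 4.3.3, two-sided, Benjamini-Hochberg), with no further terms; the code was tested on simulated data. The number of arrays limits the precision. All 8 arrays share 1 slide and scan, so that neither could be a term. Levels of different probes are not compared. Pairs of arrays correlated at 0.982 to 0.993 over genes, and none was a copy of another.

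The members, gene lists and alternatives were chosen with earlier results of these data known. All 30 genes are named, with array values for those at an unadjusted p under 0.05 or with groups that do not overlap, the largest difference in each role, and Msmo1, Cyp51, Fasn and Srebf2. These 4, and Idi1, were singled out after their values were seen; in the other lists up to 4 genes with the lowest unadjusted p are named. Alternatives were scaling by quantiles or by the array median, background correction by normexp, the deposited table, other filters on dim probes, averaging the probes of a gene, eBayes with a trend and robust variances, weighted arrays, a term for the replicate number, a covariate for the level of 5 adipocyte markers, and leaving out arrays.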

Additional observations from a re-analysis of the deposited data

Results flagged for a closer look

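Within the 60 groups of 4 arrays (30 genes in TAC and CTL), 3 had an array whose gap to the nearest other array was above Dixon's 95% critical value for 4 samples, as a share of the group's range. That is 5% of the groups, and chance flags about 5%. Sc5d was 0.80 on TAC replicate 4, against 0.26 to 0.30 on the other TAC arrays, a gap of 0.923 of the range. Tm7sf2 was 2.34 on TAC replicate 4, against 2.10 to 2.14 on the other TAC arrays, a gap of 0.847. Msmo1 was 3.24 on TAC replicate 1, against 2.83 to 2.90 on the other TAC arrays, a gap of 0.831.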

How the results depend on the processing

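None of the 30 genes was called under the reported settings or any of the 21 alternatives (limma), whose lowest adjusted p was 0.0942. Acly was lower at an unadjusted p under 0.05 under all 22, Mvd and Acaca under 20 and Pmvk under 15. The number of the 30 under that limit, 4 as reported, was 8 with the median of each array (14.1% of all genes lower), 7 with an intensity trend and robust estimation (8.71%), 2 without TAC replicate 4 and CTL replicate 2 (4.68%), and 3 to 6 without 1 array (5.05% to 10.4%), all lower in TAC. It was 6 with normexp and quantile normalization (8.84% of all genes lower, 7.47% higher). It was also 6 with the deposited values (8.98% lower, 7.46% higher), and each time 1 was higher, Ebp. With the adipocyte covariate it was 4 (4.37% lower, 4.33% higher), with 1 higher, Elovl6 at 0.44 (unadjusted p = 0.0397, limma). The adipocyte covariate, the mean of 5 markers chosen with their differences known, nearly follows the treatment, at 2.53 to 6.22 above the CTL mean in TAC and -1.11 to 2.61 in CTL, so that its values say little of either term. The median difference of the 30 genes was -0.18 with the adipocyte level as a covariate, -0.13 without TAC replicate 4 and CTL replicate 2, and -0.14 to -0.067 without 1 array. With the median of each array it was -0.14, with 25 of 30 below 0, beside a median of -0.11 over all genes. With normexp and quantile normalization it was -0.050, with 18 below 0, beside -0.028. With the deposited values it was -0.055, with 17 below 0, beside -0.033. The number of genes called among all, 57 as reported (47 higher in TAC), was 286 with normexp and the 75th percentile, 132 with normexp and quantile normalization (91 higher in TAC), 181 with the deposited values, 32 with no filter, 151 with probes bright on all 8 arrays, 221 with an intensity trend, 309 with array weights, 103 with the replicate number as a block, 0 with the adipocyte covariate (limma, 2186 at an unadjusted p under 0.05), 8 without TAC replicate 4 and CTL replicate 2, and 7 (without CTL replicate 2) to 56 (without CTL replicate 1) without 1 array, with 18, 22, 33, 13 and 13 without TAC replicates 1, 2 and 3 and CTL replicates 3 and 4. The replicate numbers are not known to pair the samples. Same-numbered arrays deviated together with correlations of 0.16, 0.021, 0.14 and 0.055, and differently numbered ones with -0.15 to 0.055. The block put 5 of the 30 genes under an unadjusted p of 0.05 (limma), all lower in TAC, where 9.55% of all genes were lower.

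Differences that turned sign were between -0.13 and 0.13 as reported, and the cause was not tested. With quantile normalization they were 0.0026 for Hmgcs1, 0.0069 for Idi1 and 0.016 for Scap. With the median of each array they were -0.043 for Tm7sf2, -0.040 for Hsd17b7, -0.036 for Sc5d, -0.039 for Stard4 and -0.033 for Elovl6. With normexp and quantile normalization they were 0.022 for Idi1 and 0.0070 for Scap, and with the deposited values 0.0060 for Idi1, 0.025 for Fdft1 and 0.022 for Scap. With the mean of a gene's probes they were 0.011 for Hmgcs1, -0.056 for Mvk, -0.022 for Tm7sf2, -0.0070 for Hsd17b7, 0.23 for Srebf2 and -0.033 for Stard4. With array weights they were 0.0010 for Fdft1, 0.16 for Cyp51, -0.031 for Tm7sf2, -0.065 for Hsd17b7, -0.060 for Sc5d, -0.044 for Stard4 and -0.060 for Acss2. With the adipocyte covariate they were -0.051 for Mvk, 0.046 for Fdft1, -0.19 for Tm7sf2, -0.28 for Hsd17b7, -0.016 for Ebp, -0.26 for Sc5d, 0.028 for Srebf2, -0.27 for Acss2 and 0.36 for Fasn, and Srebf1, which kept its sign, was at -0.13. Without TAC replicate 4 and CTL replicate 2 they were 0.078 for Fdft1, -0.065 for Hsd17b7, -0.11 for Sc5d and -0.081 for Stard4. Leaving out 1 array, the differences ranged from -0.038 to 0.16 for Mvk, -0.081 to 0.14 for Elovl6, -0.23 to 0.20 for Idi1, -0.11 to 0.0035 for Scap, -0.46 to 0.24 for Cyp51, -0.047 to 0.10 for Stard4, -0.039 to 0.17 for Acss2, -0.11 to 0.033 for Fdft1, -0.063 to 0.059 for Tm7sf2, -0.089 to 0.12 for Hsd17b7, -0.12 to 0.10 for Sc5d, -0.030 to 0.22 for Insig1, -0.027 to 0.26 for Scd2, -0.13 to 0.045 for Srebf2 and -0.32 to 0.022 for Fasn.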
